A study of Mus musculus with 9 samples.

Results

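Transcripts of 8 mouse genes were followed in RNA from hippocampal synaptoneurosomes: Pik3r4, Pik3c3, Becn1, Uvrag, Atg14, Ulk1, Ulk2 and Rb1cc1. They encode subunits of the VPS34 lipid kinase complexes and of the ULK kinase complex. The list was chosen by the difference of Pik3r4 between the study's groups, and the other 7 genes were added for their known place beside it. By p of that difference Pik3r4 was the third of the genes with higher values after treatment, at a log2 fold change of 0.43 (SE 0.11). The next gene in that order, Bdkrb2, was at 1.41 (SE 0.37). Values of Pik3r4 in this contrast are therefore a description, and the question put to the data is whether the other 7 genes moved with it. All 8 genes were found among the 22255 of the table, and all 8 were among the 14512 genes that passed the count filter.

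All samples, controls included, carried the Fmr1 knockout, which models fragile X syndrome, on the C57Bl/6J strain. Treatment was with AM6545 in 4 samples, lettered A, B, C and E. It is a CB1 cannabinoid receptor antagonist with limited entry into the brain, and was given as a sub-chronic course. The 5 control samples, lettered A to E, were from knockouts given vehicle. Wild-type samples are not analysed here. Synaptoneurosomes are a tissue fraction enriched in pinched-off nerve terminals with their attached postsynaptic parts. The labels used here give no dose or animal age, and do not say whether each sample is 1 animal or a pool. The p-values therefore judge group differences against the spread between samples, whatever its source. Whether they hold between animals is not known.

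VPS34, the product of Pik3c3, is the class III phosphoinositide 3-kinase, which makes the membrane lipid PI3P. It works only in complexes with VPS15, the scaffold protein that Pik3r4 encodes, and with beclin 1. ATG14 directs this core to sites where autophagosomes begin, while UVRAG takes the place of ATG14 in the complex that serves endosomes. The ULK1 and ULK2 kinases, with the scaffold FIP200 encoded by Rb1cc1, act upstream and are held back by mTOR. In neurons autophagosomes form largely in axon terminals and are carried back toward the cell body.

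Promoter windows from RefSeq (build GRCm38.p6) were on hand for 5 of the 8 genes. Those of Pik3r4, Ulk1 and Atg14 are shown, because Pik3r4 chose the list and the other 2 followed it most closely from sample to sample within groups (values given further on). Each window runs from 250 bases before to 50 bases after the start, 5′ to 3′ along the gene. The Pik3r4 window is chr9:105642745-105643044 on the plus strand, the Ulk1 window chr5:110810032-110810331 on the minus strand, and the Atg14 window chr14:47568385-47568684 on the minus strand.
Pik3r4: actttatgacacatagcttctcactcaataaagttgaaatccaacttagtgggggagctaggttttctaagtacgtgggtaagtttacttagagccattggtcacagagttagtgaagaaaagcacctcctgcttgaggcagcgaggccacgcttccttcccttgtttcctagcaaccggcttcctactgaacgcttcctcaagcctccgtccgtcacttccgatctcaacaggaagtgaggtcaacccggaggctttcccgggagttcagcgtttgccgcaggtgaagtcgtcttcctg
Ulk1: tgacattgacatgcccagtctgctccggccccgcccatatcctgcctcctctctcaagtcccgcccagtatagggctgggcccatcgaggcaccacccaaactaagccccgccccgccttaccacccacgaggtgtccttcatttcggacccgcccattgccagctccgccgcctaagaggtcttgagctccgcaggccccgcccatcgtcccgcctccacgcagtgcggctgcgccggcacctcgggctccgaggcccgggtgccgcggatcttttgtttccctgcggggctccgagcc
Atg14: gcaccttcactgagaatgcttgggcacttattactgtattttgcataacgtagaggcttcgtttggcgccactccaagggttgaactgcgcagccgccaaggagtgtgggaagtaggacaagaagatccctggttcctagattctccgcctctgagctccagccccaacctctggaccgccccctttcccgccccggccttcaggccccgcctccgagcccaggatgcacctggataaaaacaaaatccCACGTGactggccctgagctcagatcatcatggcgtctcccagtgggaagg
Capitals mark CACGTG, the core of the element bound by the lysosomal and autophagy factor TFEB, which is its own reverse complement. Of the 5 windows only that of Atg14 held it, starting at base 250 of the window, against 7.15% of the 32851 windows of the table. GTAAACA, a FOXO motif searched on both strands, was in 0 of the 5 windows and in 3.65% of all windows. GC content was 50.7% in the Pik3r4 window, 68.0% in that of Ulk1 and 57.7% in that of Atg14. These are matches of letters and show no binding.

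Library totals ran from 17628922 to 27263393 counts, and 16470 to 16883 genes had a count in a sample. Mitochondrially encoded genes held 4.06% to 7.90% of counts. Fmr1, the targeted gene, was counted in every sample, at 9.45 to 11.1 CPM (counts scaled to TMM-adjusted library size) after AM6545 and 10.3 to 13.3 CPM in vehicle. Without a wild-type sample this does not check the genotype. The neuronal markers fixed for the tissue were present: all 8 passed the count filter, and their summed level was 7080 to 7920 CPM after AM6545 and 6458 to 8678 CPM in vehicle. Fitted values after AM6545 were higher in 7 and lower in 1, Snap25, at a log2 fold change of -0.11 (SE 0.15). The median of the 8 was 0.14, beside -0.0090 over all genes tested, and 0 had an unadjusted p under 0.05. Their part in the Pik3r4 values was not tested.

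Among the 8 genes, levels per kilobase of the longest coding transcript spanned about an order of magnitude in vehicle samples. Becn1 was the highest, at 44.2 ± 2.84 CPM per kilobase (SD, n = 5). Pik3c3 followed at 15.4 ± 2.16 (SD, n = 5) and Rb1cc1 at 12.4 ± 1.67 CPM per kilobase (SD, n = 5), and the sample ranges of these neighbours overlapped. Ulk2 was at 9.36 ± 0.902 CPM per kilobase (SD, n = 5), below every Rb1cc1 value. Atg14, at 6.31 ± 0.580 (SD, n = 5), and Uvrag, at 6.26 ± 0.833 CPM per kilobase (SD, n = 5), could not be ordered by their ranges. Pik3r4 stood at 4.68 ± 0.471 CPM per kilobase (SD, n = 5), below every Atg14 value, though its range overlapped that of Uvrag. Ulk1 was the lowest, at 3.61 ± 0.475 CPM per kilobase (SD, n = 5), with every value under those of Pik3r4. After AM6545 the Pik3r4 level per kilobase was 6.30 ± 0.618 (SD, n = 4), beside 6.42 ± 0.604 for Uvrag (SD, n = 4) and 7.02 ± 0.871 for Atg14 (SD, n = 4). Several of these genes have short partial transcript models in the annotation, so levels between genes depend on the transcript taken.

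Pik3r4 (ENSMUSG00000032571.15), the VPS15 scaffold, was at 32.8, 31.7, 26.2 and 29.2 CPM in AM6545 replicates A, B, C and E. In vehicle replicates A to E it was at 19.8, 25.6, 23.4, 21.1 and 21.5 CPM. Every AM6545 sample lay above every vehicle sample, but the gap between AM6545 C and vehicle B was small. Groups were apart in this direction in 84 of the genes tested (0.579%), and in 126 (0.868%) they were apart in the other. As the rule used this contrast, nothing is read from that share. The means were 30.0 ± 2.94 CPM (SD, n = 4) and 22.3 ± 2.24 CPM (SD, n = 5), or 34.6% higher after AM6545. These levels rest on 343 to 749 counts per sample. Omitting single samples, the log2 fold change of 0.43 ran from 0.38 without AM6545 A to 0.49 without vehicle B. In the annotation its model overlaps only that of the small nuclear RNA gene Gm22720, which lies on the opposite strand and shares 0 exonic bases with it.

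**Figure D1:**
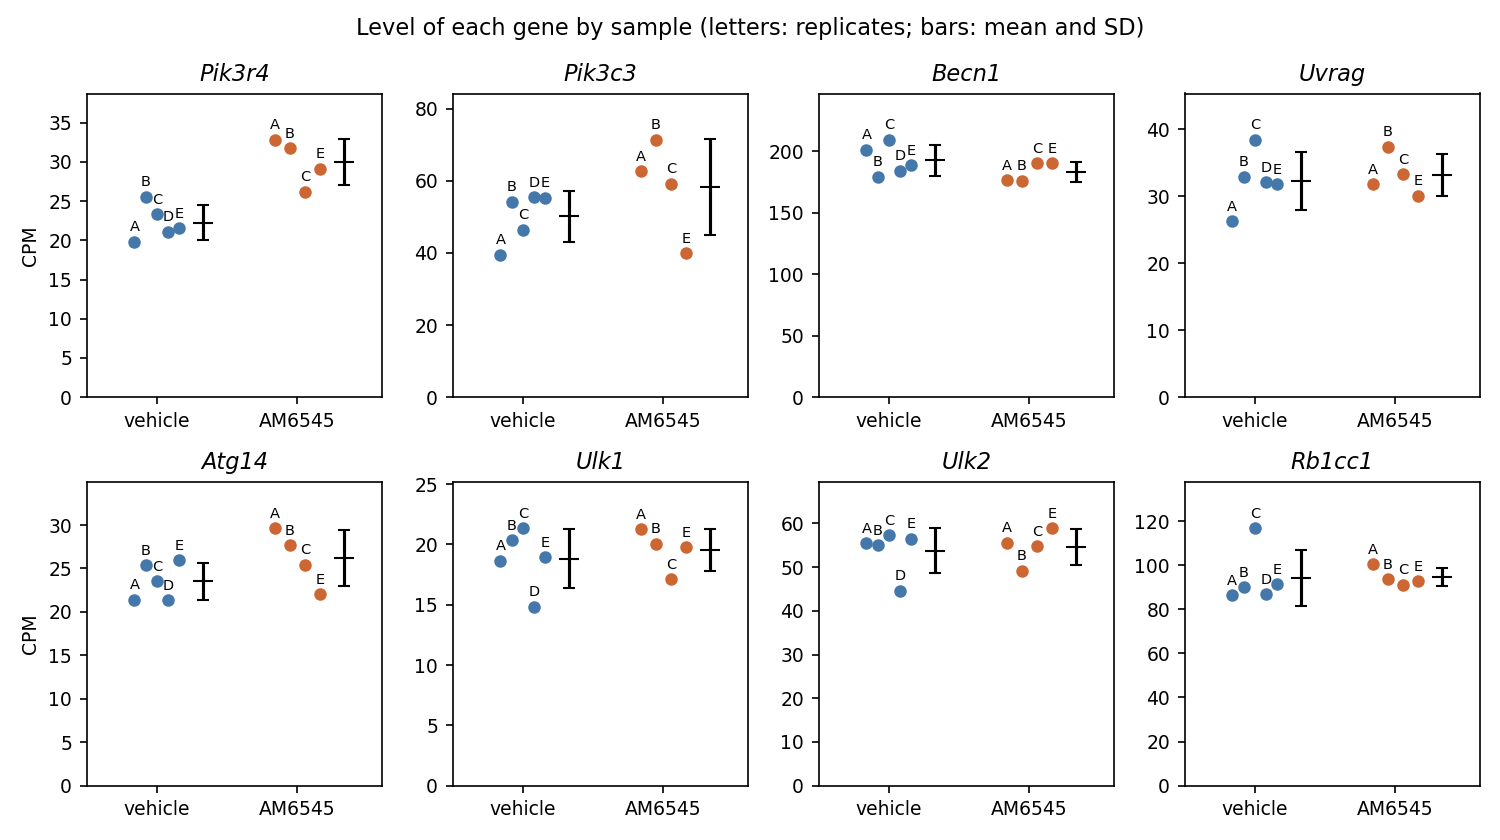
CPM (vertical axis, starting at 0) of each of the 8 genes in the 5 vehicle and 4 AM6545 samples; points are samples lettered by replicate, and bars give the mean and SD. In Pik3r4 the lowest AM6545 sample, at 26.2 CPM, lies just above the highest vehicle sample, at 25.6 CPM, whereas the groups overlap in the other 7 genes.

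No gene of the transcriptome was called in this comparison. In edgeR's quasi-likelihood test 0 of the 14512 genes (0%) passed an adjusted p of 0.05, and the smallest adjusted p was 0.653. DESeq2 and limma-voom also called 0. An unadjusted p below 0.05 was reached by 1047 genes, 7.21% of those tested, with 440 (3.03%) higher after AM6545 and 607 (4.18%) lower. Single libraries moved these counts: 1 gene passed the adjusted threshold without AM6545 A. The 1047 became 496 without vehicle A, 663, 642 and 690 without AM6545 A, B or C, 1797 without vehicle B and 1848 without AM6545 E. Pik3r4, the gene that set the list, was among the higher ones, and 0 of the other 7 members was in either set. The groups overlapped in all 7. Their median log2 fold change was 0.036, beside -0.0090 over all genes tested, of which the middle 50% lay between -0.13 and 0.11. Adjusted p-values of the 7 ran from 0.699 to 0.994.

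Pik3c3 (ENSMUSG00000033628.16), the catalytic subunit that VPS15 anchors to membranes, had the next largest value. It was at 62.6, 71.3, 59.2 and 39.9 CPM in AM6545 A, B, C and E, and at 39.5, 54.2, 46.5, 55.4 and 55.3 CPM in vehicle A to E. In AM6545 samples A, B and C it exceeded every vehicle sample, while AM6545 E was close to the lowest vehicle sample. The log2 fold change was 0.21 (SE 0.15), with a 95% interval of -0.11 to 0.54 and an edgeR adjusted p of 0.699. Its size depended on single libraries. It was 0.36 without AM6545 E (edgeR unadjusted p = 0.0113, adjusted p = 0.360), 0.10 without AM6545 B and 0.14 without vehicle A.

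Becn1 (ENSMUSG00000035086.14) encodes beclin 1, which joins the same core and serves as a docking site for its regulators. Its levels were 176, 176, 190.4 and 190.2 CPM in AM6545 A, B, C and E, against 201, 179, 209, 184 and 189 CPM in vehicle A to E. It was the only member with a lower fitted value, at a log2 fold change of -0.072 (SE 0.088, 95% interval -0.26 to 0.12). All 4 AM6545 samples lay under the vehicle mean, A and B just under the lowest vehicle sample and C and E among the vehicle samples. Becn1 shares 3104 exonic bases with Cntd1 on the opposite strand, and whether reads were counted by strand is not given in the sources used here. Cntd1 itself was at no more than 0.720 CPM in a sample.

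The subunits that set the place of the core did not separate the groups. Atg14 (ENSMUSG00000037526.8), of the autophagy complex, was at 29.6, 27.7, 25.4 and 22.05 CPM in AM6545 A, B, C and E. Vehicle samples A to E had 21.4, 25.4, 23.5, 21.3 and 26.0 CPM. The A and B samples after AM6545 lay above all vehicle samples and AM6545 E was near their lower end, giving a log2 fold change of 0.15 (SE 0.11, 95% interval -0.083 to 0.39). Without AM6545 A it was 0.090, and without AM6545 E it was 0.23. Uvrag (ENSMUSG00000035354.10), of the endosomal complex, was at 31.8, 37.4, 33.2 and 30.1 CPM after AM6545 and at 26.3, 32.9, 38.4, 32.1 and 31.8 CPM in vehicle, in the same order of replicates. Its log2 fold change was 0.036 (SE 0.11, 95% interval -0.21 to 0.28), and the sign turned without AM6545 B (-0.027) or vehicle A (-0.028). Stretches of 226 to 345 bases of Uvrag transcripts are at least 95% identical to transcripts of 5 other genes of the table, so reads from these stretches could have been split between genes.

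The groups overlapped in all 3 genes of the ULK complex. Ulk1 (ENSMUSG00000029512.12), the kinase that starts autophagosome formation, was at 21.2, 20.04, 17.1 and 19.8 CPM after AM6545 and at 18.7, 20.3, 21.3, 14.8 and 18.9 CPM in vehicle. Its log2 fold change was 0.054 (SE 0.12, 95% interval -0.20 to 0.31). For its paralog Ulk2 (ENSMUSG00000004798.15) the values were 55.6, 49.1, 54.7 and 58.9 CPM after AM6545 and 55.5, 55.04, 57.2, 44.6 and 56.5 CPM in vehicle. Vehicle D was the lowest Ulk2 sample and AM6545 E the highest, and the log2 fold change was 0.021 (SE 0.099, 95% interval -0.19 to 0.23). Rb1cc1 (ENSMUSG00000025907.15), the FIP200 scaffold, was at 100.3, 93.6, 91.2 and 92.8 CPM after AM6545 and at 86.3, 90.1, 116.7, 86.9 and 91.3 CPM in vehicle. Vehicle C was the highest of all 9, and the log2 fold change was 0.0034 (SE 0.10, 95% interval -0.22 to 0.22). That of Rb1cc1 was 0.092 without vehicle C. The signs of the Ulk1, Ulk2 and Rb1cc1 changes turned under some settings, Ulk1 and Ulk2 without vehicle D among them, and Rb1cc1 also with total counts as the scaling.

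**Figure D2:**
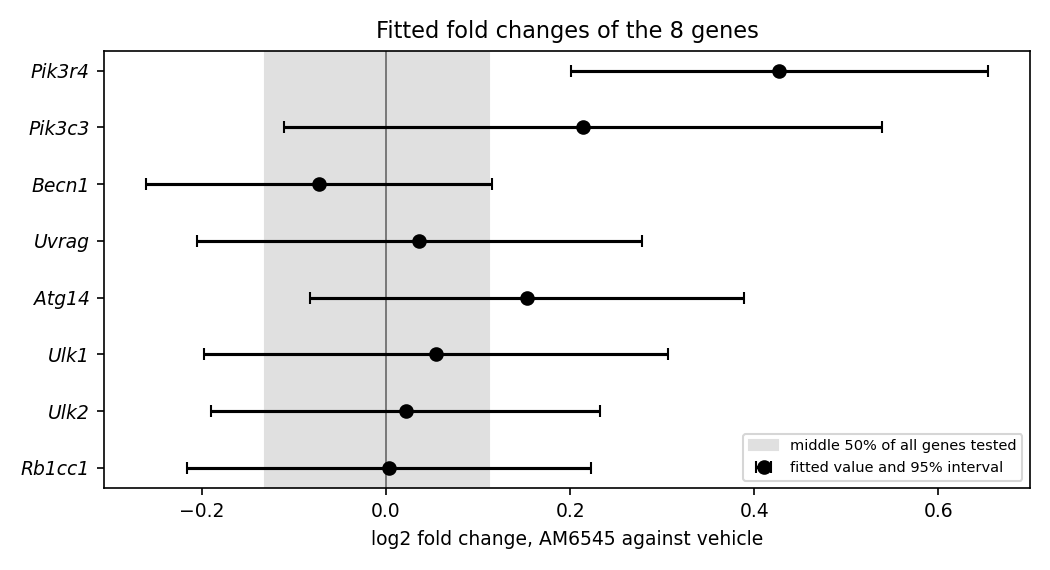
Fitted log2 fold change of AM6545 against vehicle (horizontal axis) for the 8 genes, with 95% intervals from the fit across all genes; the shaded band holds the middle 50% of all genes tested, from -0.13 to 0.11. The interval of Pik3c3 reaches past the Pik3r4 value of 0.43, and the upper ends of the other 6 stay below it.

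The intervals of the partners were set beside the Pik3r4 value. The list was chosen on that value, so no limit on a shared change is read from it. Of the 7, only that of Pik3c3 included a log2 fold change of 0.43, the Pik3r4 value, and the other 6 ended below it, at 0.12 to 0.39. The Pik3r4 value has its own interval, 0.20 to 0.65, which reaches below all of these upper ends except that of Becn1, at 0.12. A difference in fold change between Pik3r4 and a partner was not tested, because Pik3r4 was chosen on its own difference.

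Ratios within a library do not depend on how libraries are scaled, and they give the same comparison sample by sample. The log2 ratio of Pik3r4 to Ulk1 counts was 0.63, 0.66, 0.61 and 0.56 in AM6545 A, B, C and E. In vehicle A to E it was 0.087, 0.33, 0.13, 0.51 and 0.19. All AM6545 samples thus lay above all vehicle samples, by 0.052 at the closest pair. The groups did not overlap either in the ratios to Uvrag, Atg14, Ulk2 and Rb1cc1, making 5 of 7, with gaps of 0.018 to 0.033 between the closest samples. Since Pik3r4 separates the groups by itself, its ratio did so in the same direction for 25.1% of the 14511 other genes tested, and nothing particular to the members is read from their count. In the ratio to Becn1 they overlapped by 0.049, since vehicle B reached -2.81 and AM6545 C was at -2.86. The ratio to Pik3c3, the binding partner of VPS15, overlapped most: it was -0.93, -1.17, -1.18 and -0.45 in AM6545 A, B, C and E and -0.99, -1.08, -0.99, -1.39 and -1.36 in vehicle A to E. Its mean differed by 0.23 between groups, against 0.28 for Atg14 and 0.37 to 0.50 for the other 5. Pik3c3 and Atg14 were thus the members in which the Pik3r4 ratio differed least. No test is attached, as Pik3r4 enters every ratio.

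**Figure D3:**
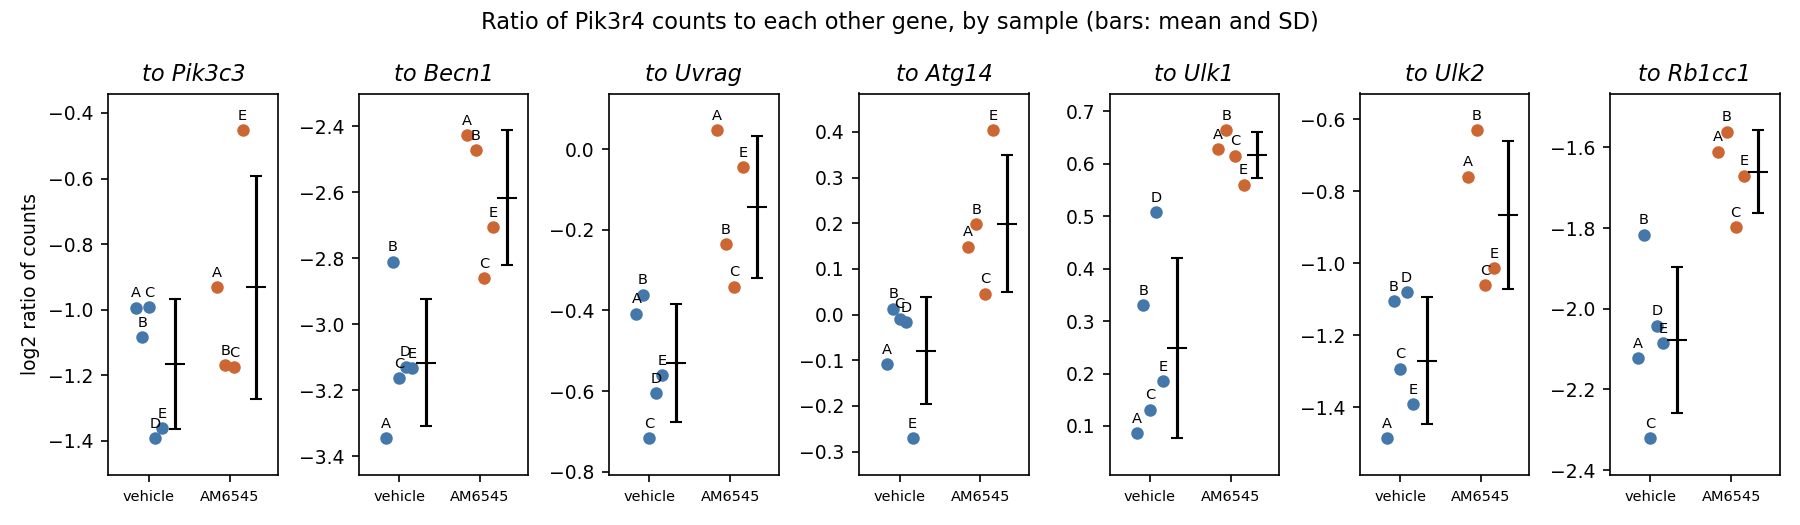
Log2 ratio of Pik3r4 counts to the counts of each other gene in the same sample (vertical axes, scaled to each panel), for 5 vehicle and 4 AM6545 samples lettered by replicate, with mean and SD. The ratio to Ulk1 spans 0.56 to 0.66 after AM6545 and 0.087 to 0.51 in vehicle, and the ratio to Pik3c3 overlaps between groups.

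Whether the genes varied together was also read within the groups, from each sample's deviation from its group mean on the log2 CPM scale, which uses no group difference. Over the 9 samples, 6 of the 7 members had a positive Pearson r with Pik3r4 and their median r was 0.43. Over the 14511 other genes tested the median r was -0.0065, with the middle 50% between -0.32 and 0.32. None of the 7 relations passed an adjusted p of 0.05 in two-sided exact permutation of samples within groups (2880 orders), and 0 had an unadjusted p under 0.05 for r. Ulk1 followed Pik3r4 most closely, at r = 0.67 (exact permutation p = 0.0684, adjusted over the 7 relations 0.353). Its Spearman rho was 0.83 (exact permutation p = 0.0139, adjusted 0.0972). Atg14 had r = 0.61 (exact permutation p = 0.111, adjusted 0.353) and rho = 0.58 (exact permutation p = 0.147, adjusted 0.331). Becn1 went the other way, at r = -0.51 (exact permutation p = 0.193, adjusted 0.353) and rho = -0.50 (exact permutation p = 0.189, adjusted 0.331). Leaving out vehicle B alone brought Rb1cc1 past the threshold, at r = 0.68 (exact permutation adjusted p = 0.0122).

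The catalytic partner Pik3c3 had r = 0.38 (exact permutation p = 0.364, adjusted 0.424) and rho = 0.23 (exact permutation p = 0.583, adjusted 0.681). For Uvrag r was 0.50 (exact permutation p = 0.202, adjusted 0.353) and rho 0.35 (exact permutation p = 0.385, adjusted 0.539). For Rb1cc1 r was 0.43 (exact permutation p = 0.289, adjusted 0.404) and rho 0.52 (exact permutation p = 0.128, adjusted 0.331). Ulk2 showed almost no relation, at r = 0.062 (exact permutation p = 0.876, adjusted 0.876) and rho = 0.083 (exact permutation p = 0.877, adjusted 0.877). The samples farthest from the Pik3r4 median were AM6545 A and vehicle B. Without both, over 7 samples, r was 0.59 for Ulk1, 0.39 for Atg14, -0.13 for Becn1, 0.28 for Pik3c3, 0.74 for Uvrag, 0.65 for Rb1cc1 and -0.078 for Ulk2. The relation of Becn1 did not keep its size: r was -0.28 without vehicle B alone, -0.86 without vehicle C (exact permutation p = 0.0312, unadjusted) and -0.14 with total counts as the scaling. Without vehicle A alone, r fell to 0.19 for Pik3c3 and to 0.25 for Uvrag. Without vehicle C, r of Rb1cc1 was 0.70. Scaling by total counts moved r of Ulk2 to 0.30. Samples share a library with all their genes, so depth and composition enter every r.

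**Figure D4:**
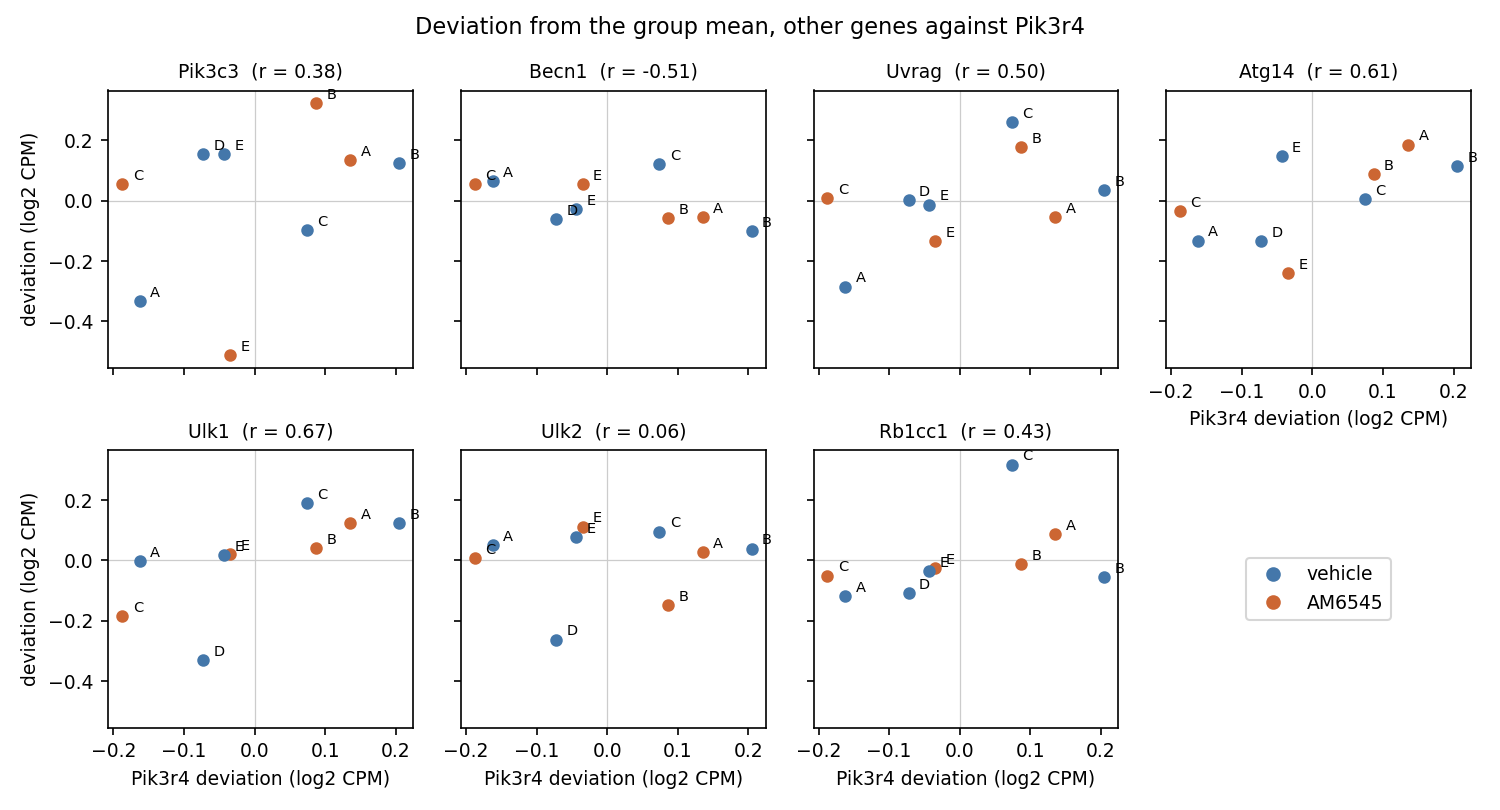
Deviation from the group mean in log2 CPM for each of the 7 other genes (vertical axis) against that of Pik3r4 (horizontal axis), with 1 point per sample lettered by replicate and coloured by group. Ulk1 and Atg14 follow Pik3r4, at r = 0.67 and 0.61, and Becn1 slopes the other way, at r = -0.51, none past the adjusted threshold.

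By the same measure, over the 9 samples, the genes most like Pik3r4 were sought among 10034 genes with a mean of at least 3 log2 CPM. They were Usp8, a deubiquitinase of endosomes, at r = 0.95, the transcriptional repressor Spen at 0.95, the zinc finger factor Zbtb17 at 0.95 and Dio3, which inactivates thyroid hormone, at 0.94. Their own log2 fold changes between groups were 0.075 (SE 0.098) for Usp8, 0.24 (SE 0.12) for Spen, 0.15 (SE 0.11) for Zbtb17 and -0.073 (SE 0.17) for Dio3. The genes most opposed were Map3k2, a MAP kinase kinase kinase, at r = -0.95, Ddc, the enzyme of the last step to serotonin and dopamine, at -0.92, Mmgt2 at -0.91 and the transcription factor Trps1 at -0.90. None of the 7 members was among them, the closest being Ulk1, whose r exceeded that of 94.9% of the genes tested. Picked as the extremes of so many genes, these values describe the samples and were not tested.

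The pathway around the 8 genes was covered by 9 lists, with 107 of 109 genes tested. Of these, 62 were higher and 45 lower after AM6545, against 6996 (48.2%) higher and 7516 lower over all genes tested. The median log2 fold change of the 107 was 0.018. None passed an adjusted p of 0.05 in edgeR's test across all genes. An unadjusted p below 0.05 was reached by 8 with higher and 6 with lower values, 13.1% of the 107 against 7.21% of all genes tested. The groups did not overlap in 1 gene, Gabarapl2, which was lower after AM6545. Over all genes tested they were apart in this direction in 0.868% and in the other in 0.579%. Nothing is read from this count. Values of the named genes are given as measured, since none was called.

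Among 10 other partners and regulators of VPS34, Ambra1, a beclin 1 partner that also acts on ULK1, had the highest value. Its log2 fold change was 0.48 (SE 0.16), from 10.1 ± 2.23 CPM in vehicle (SD, n = 5) and 14.0 ± 2.38 CPM after AM6545 (SD, n = 4), and the groups overlapped. Usp10, a deubiquitinase of beclin 1, was at 0.24 (SE 0.11), and Rubcnl was the lowest at -0.28 (SE 0.25). A list of 4 genes held the complex subunits Atg13 and Atg101 and the kinase relatives Ulk3 and Ulk4. Its values ran from -0.37 (SE 0.21) for Ulk4 to 0.12 (SE 0.14) for Atg101, with 0 at an unadjusted p under 0.05. Atg13 was at 0.023.

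The 11 genes of the early autophagic membrane had a median log2 fold change of 0.10, and 8 were higher. Atg9a, the lipid scramblase of the vesicles that seed it, averaged 103 ± 19.0 CPM (SD, n = 5) under vehicle and 126 ± 12.7 CPM (SD, n = 4) under AM6545, with a fitted log2 difference of 0.30 (SE 0.13). Atg2a, which passes lipid into the growing membrane, was at 0.43 (SE 0.16), the Atg9a paralog Atg9b at 0.55 (SE 0.34) and the PI3P binder Wipi1 at -0.055 (SE 0.12). Further downstream, 10 of the 15 listed genes of ATG8 and ATG12 conjugation were lower, with a median of -0.096. The list holds the conjugated ubiquitin-like proteins as well as the machinery that acts on them. The conjugated proteins (Atg12, Map1lc3a, Map1lc3b, Gabarap, Gabarapl1 and Gabarapl2) all had lower fitted values, as had 7516 of all 14512 genes tested. They were not a list of their own, and nothing is read from this count. The machinery genes went both ways. Gabarapl2, an ATG8 protein, averaged 332 ± 43.9 CPM (SD, n = 5) under vehicle and 272 ± 14.2 CPM (SD, n = 4) under AM6545, with a fitted log2 difference of -0.29 (SE 0.11). Every AM6545 sample of Gabarapl2, 252 to 285 CPM, lay below every vehicle sample, 286 to 385 CPM, as in 0.868% of all genes tested. Its relative Gabarap was at -0.26 (SE 0.12), the ATG8 protease Atg4a at -0.45 (SE 0.17), and Atg7, the activating enzyme, was the highest of the list at 0.18 (SE 0.13).

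Of 10 receptors of selective autophagy, the mitochondrial Bnip3 and Fundc1 were at -0.26 (SE 0.12) and -0.26 (SE 0.11), and Wdfy3, a scaffold for protein aggregates, at 0.30 (SE 0.10). Among 12 genes of PI3P turnover, Fig4 at 0.31 (SE 0.17) and Vac14 at 0.30 (SE 0.13), which work together with the kinase Pikfyve, were at the upper end and Pikfyve itself was the lowest at -0.15 (SE 0.11). The 14 endosomal PI3P binders and Rab GTPases ran from -0.53 (SE 0.19) for the kinase Sgk3 to 0.31 (SE 0.15) for the sorting protein Hgs. Of the class I and class II kinases, with 12 of 13 genes tested, the regulatory subunit Pik3r2 was at 0.28 (SE 0.11), the catalytic Pik3cd at 0.37 (SE 0.15) and the regulatory Pik3r1 at -0.16 (SE 0.10). The 19 lysosomal genes had a median of 0.057 and 0 at an unadjusted p under 0.05, between -0.33 (SE 0.32) for Mitf and 0.24 (SE 0.15) for its relative Tfeb.

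Transcript length moved with the direction of these values. The 8 higher genes had a median length of 4569.5 bases and the 6 lower genes 1869.5 bases, against 3197 bases over all genes tested. With each sample's trend of level with transcript length removed, all 8 and all 6 kept their sign. Of these, 7 of the 8 and 3 of the 6 stayed at an unadjusted p under 0.05. Usp10 of the higher genes did not, nor did Gabarap, Bnip3 and Fundc1 of the lower. Atg12 (4765 bases) came under 0.05 only with the trend removed, at a log2 fold change of -0.24, making 11 of the 107 genes in all. Over all genes, 854 of the 14512 tested were under 0.05 in that setting, and nothing is read from the count of 11. Pik3r4, with a longest coding transcript of 4756 bases, was then at a log2 fold change of 0.39, Pik3c3 (3257 bases) stayed higher and Becn1 (4365 bases) was at -0.12. The conjugated proteins besides Atg12 were then at -0.017 (Map1lc3a), -0.066 (Gabarapl1), -0.10 (Map1lc3b), -0.17 (Gabarap) and -0.24 (Gabarapl2).

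**Figure D5:**
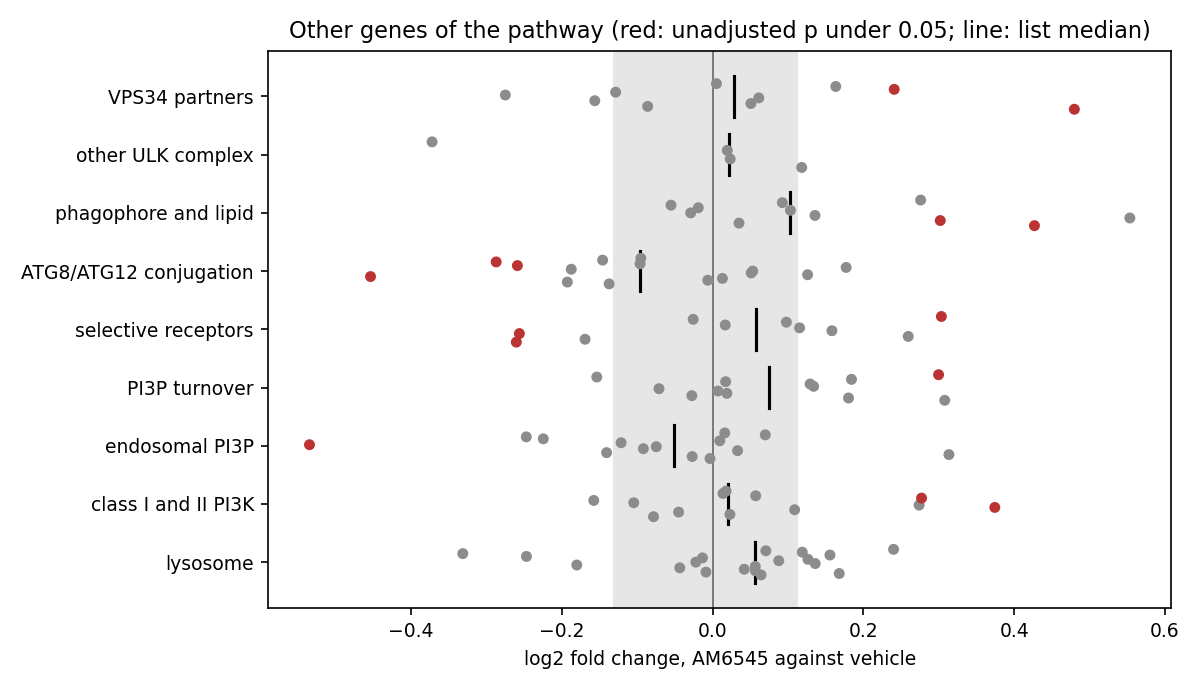
Log2 fold change of AM6545 against vehicle (horizontal axis) for 107 genes in 9 lists around the VPS34 and ULK complexes; each point is a gene, red where its unadjusted p is under 0.05, the black line is the list median, and the shaded band is the middle 50% of all genes. Values lie on either side of 0 in every list, with the conjugation list centred at -0.096 and the early membrane list at 0.10.

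Markers of other cells were read beside these values. All 9 choroid plexus markers had lower fitted values after AM6545 (1 at an unadjusted p under 0.05), with summed levels of 457 to 3557 CPM against 312 to 10930 CPM in vehicle. The 7 microglial markers summed to 760 to 1014 CPM after AM6545 and 574 to 898 CPM in vehicle, 5 with higher and 2 with lower fitted values. In 1 of them, Tmem119, every AM6545 sample was above every vehicle sample, at 50.3 to 57.6 against 28.5 to 49.1 CPM, as in 0.579% of all genes tested, while Aif1 was at a log2 fold change of -0.22 (SE 0.20). Summed astrocyte markers (8 genes) covered 2469 to 3197 CPM against 2262 to 3376 CPM, and oligodendrocyte markers (7 genes) 13130 to 18850 CPM against 10770 to 22520 CPM. Endothelial markers, with 6 of 7 genes tested, covered 49.7 to 70.1 CPM against 44.3 to 94.9 CPM. Fitted values were lower in 5 and higher in 1, with 2 lower at an unadjusted p under 0.05. Of all genes tested 4.18% were lower at that p, and nothing is read from the counts of markers under it. The summed ranges of the groups overlapped in all of these lists, and their part in the Pik3r4 values was not tested. In such bulk fractions fewer cells or terminals of a type and less RNA in each cannot be told apart.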

How the data were processed

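RNA from hippocampal synaptoneurosomes of 9 samples was sequenced by the submitters with a low-input SMARTer kit. The authors deposited 1 table of estimated counts per gene, not scaled between samples. Salmon 1.3 and DESeq2 1.30 are named, with the builds GRCm39 and mm10, per the submitters' processing notes; how they were used, and the strand setting, are not given in the sources used here. Samples were grouped by the treatment label. Estimated counts were rounded. Identifiers without version matched GENCODE M21 symbols for 22201 of 22255 genes; Becn2 was not matched, and lengths are those of the longest coding transcript.

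Genes passing filterByExpr were scaled by TMM and tested across all genes with edgeR 4.0.16 (R 4.3.3), quasi-likelihood F-test, Benjamini-Hochberg adjustment. Standard errors are the absolute log2 fold change over the square root of F, and 95% intervals follow from them. Log2 CPM used a prior count of 2. Correlations used exact permutation within groups. Tests were checked on simulated data. Every pair of libraries differed by more than counting error (smallest ratio of chi-square to its degrees of freedom 10.03). The members and gene lists were chosen with earlier results of these data known. Besides the 8 members and Fmr1, named genes were those overlapping Pik3r4, the 4 most and 4 least like it, and in each list the extremes and any with an unadjusted p under 0.05; others were chosen after their values were seen. Alternatives were other scalings, filters, DESeq2 1.42.0, limma 3.58.1 voom, a replicate block, each sample left out, mitochondrial genes left out, and removal of length trends.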

Additional observations from a re-analysis of the deposited data

Results flagged for a closer look

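Each group's highest and lowest sample was set against the other samples of its group for the 8 genes and the 7 ratios to Pik3r4, 30 groups of values. In 2 of them a sample stood farther off than Dixon's 95% critical value, where chance gives about 1.5. Ulk2 was at 44.6 CPM in vehicle D, while the remaining vehicle samples had 55.04 to 57.2 CPM. Rb1cc1 was at 116.7 CPM in vehicle C, while the remaining vehicle samples had 86.3 to 91.3 CPM.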

How the results depend on the processing

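The log2 fold change of Pik3r4 kept its sign in all 20 alternatives, from 0.38 to 0.49, with adjusted p from 0.320 to 0.920. Those of Pik3c3 and Atg14 also stayed above 0 in all 20. Near-zero values of other members turned. Rb1cc1 was at -0.0060 with total counts, -0.015 with the replicate block, -0.016 with the length trend removed, and -0.027 to 0.092 with single samples left out. Ulk1 was at -0.022 with the replicate block and -0.021 to 0.11 with single samples left out. Ulk2 was at -0.042 with the replicate block, -0.0062 with the length trend removed and -0.039 to 0.069 with single samples left out. Uvrag ran from -0.028 to 0.11 with single samples left out. With the median in place of the longest transcript length, chosen after seeing the data, Becn1 was at 0.011, Uvrag at -0.0024 and Ulk2 at -0.016. The cause of these turns was not tested. The median of the 7 ran from -0.021 to 0.10 over all of these.

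Title letters A, B, C and E occur in both groups. Deviations of same-lettered samples had r of -0.018, 0.037, 0.34 and -0.021, and r over all pairs across groups ran from -0.28 to 0.35. These values do not settle whether the letters mark a pairing. The main fit used none. The replicate block gave 0 genes past the threshold, 759 at an unadjusted p under 0.05 and 0.41 for Pik3r4. With single samples left out, 0 to 1 gene passed the threshold (1 without AM6545 A), and 496 (without vehicle A) to 1848 (without AM6545 E) had an unadjusted p under 0.05. Among them were 1 to 2 members, Pik3c3 joining Pik3r4 without AM6545 E, and 0 to 1 correlation passed (Rb1cc1, without vehicle B); r of Ulk2 ran from -0.22 to 0.23. Voom with sample weights gave 1823 genes at an unadjusted p under 0.05. At 323 to 4904 counts per sample, counting error was 1.52% to 4.84% of the mean count for the 8 genes, and the spread between samples of a group was 4.24% to 22.7% (SD over mean), larger in each gene and group.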
